A study of Mus musculus with 12 samples.

Results

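Eukaryotic translation initiation factors (eIFs) load the ribosome onto mRNA and place it at the start codon, and elongation factors (eEFs) then deliver aminoacyl-tRNA and move the ribosome along. Their genes were taken as those with a probe set whose platform annotation gave a single gene symbol beginning with Eif1 to Eif6, Eef1 or Eef2, with the eIF2 kinases (Eif2ak genes) left out. The rule found 54 genes, measured by 142 probe sets, of 18193 genes with a probe set of 1 symbol. Each gene was read from its brightest probe set, the one with the highest mean over the 12 arrays. 52 of the 54 genes passed a filter that required a signal above the median of its own array on at least 3 arrays. Eef2kmt and Eif4a3, dim on the probe set read, did not. Probe sets annotated with several symbols were left out, among them 1 of Eif4a3, 2 of Eef1g and 3 of Eif3j1 and Eif3j2. Eif1, Eif2s1 and Eif4g1 were among the genes with no probe set that met the rule, and were not measured here.

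The study profiled RNA of lumbar spinal cord astrocytes in SOD1 G93A mice, which carry a mutant human SOD1 transgene and develop motor neuron disease, and of non-transgenic (NTg) littermates. There were 4 groups of 3 mice with 1 array per mouse, SOD1 G93A and NTg at 90 days (symptomatic) and at 120 days (late-stage). The labels give all 12 mice as male. At least 1500 cells per mouse were isolated by laser capture from frozen sections, and their RNA was amplified over 2 rounds and hybridised to Affymetrix mouse GeneChips. Per the study's methods the line was B6SJL-Tg(SOD1 G93A)1Gur/J, backcrossed to C57Bl/6 J Ola/Hsd, and NTg littermates share that background. The transgene is present in every cell type of these mice and not in astrocytes alone, and the mouse probe sets analysed here do not measure its human transcript as such, so no targeted gene checks the genotype labels.

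In outline, eIF2 brings the initiator tRNA to the small ribosomal subunit and is recharged by eIF2B, eIF1, eIF1A and eIF5 govern start-codon selection, and eIF3 holds the initiating complex together. The eIF4F complex (cap-binding eIF4E, helicase eIF4A and scaffold eIF4G) recruits capped mRNA, and the 4E-binding proteins block it until the kinase mTORC1 phosphorylates them. mRNAs of many elongation factors begin with a 5' terminal oligopyrimidine (5'TOP) tract, which places their translation under mTORC1 as well.

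The cell content and the labelled sex were checked first. All 8 astrocyte markers were tested, and their summed intensity was 14588.5 to 18402.6 in NTg and 14432.3 to 22234.5 in SOD1 G93A mice at 120 days. These sums overlapped, while 2 of the 8 were called higher, Aldh1l1 (log2 fold change 1.23, limma adjusted p = 0.00808) and Sox9 (1.53, adjusted p = 0.0243). Markers of other cells were also present, and no marker was at 0 on every array. At 120 days the summed intensity of 8 neuronal markers was 18326.1 to 23646.0 in NTg and 7529.4 to 12854.1 in SOD1 G93A mice (4 called lower), that of the 7 microglial markers found 1105.8 to 1262.8 and 4829.8 to 5381.7 (4 of the 6 tested called higher), that of 6 reactive astrocyte markers 813.2 to 907.1 and 7352.5 to 12387.1 (5 called higher), and that of the 5 oligodendrocyte markers found 22221.2 to 27631.6 and 34572.1 to 48487.1 (none called by limma, 1 with an unadjusted p under 0.05, median log2 fold change 0.33). Mbp, at 11515.7 to 14035.3 in NTg and 18185.7 to 29553.1 in SOD1 G93A mice as deposited, made up much of that last sum. Quantile normalization gave Mbp the same value on all arrays of an age. Its normalized log2 fold change of 0 was therefore fixed and does not measure whether it changed. At 90 days the neuronal sums were 20856.8 to 24496.0 in NTg and 15045.9 to 17490.4 in SOD1 G93A mice (none called by limma, 1 with an unadjusted p under 0.05), the microglial sums 2021.2 to 3532.5 and 4730.6 to 7270.6 (C1qa called higher), and the reactive astrocyte sums 1197.6 to 4110.1 and 6834.2 to 7929.8 (Timp1 called higher). None of these 3 sums overlapped between the genotypes. The part of these shifts in the results on translation factors was not tested. In such mixed material fewer cells of a type and less RNA per cell cannot be told apart.

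The X copy and the Y copy of the gene for the gamma subunit of eIF2, Eif2s3x and Eif2s3y, are both members. Eif2s3y had deposited intensities of 183, 210.1 and 209 in NTg mice and 152, 257 and 411 in SOD1 G93A mice at the age of 90 days, but 8.9, 1.9 and 7.7 in NTg mice and 0.2, 0.5 and 31.8 in SOD1 G93A mice when 120 days old. Xist, the RNA of the inactive X chromosome, ran the other way, from 0.4 to 5.2 on the 6 arrays at 90 days and from 846 to 1237 on the 6 arrays at 120 days. The measured pattern therefore went against the label male in all 6 mice labelled 120 days, in both genotypes. Comparisons of genotype within an age were not divided by it, whereas age, this pattern and any difference in preparation between the ages cannot be told apart. The brightest probe set of Eif2s3x was between 294 and 408 at 90 days and between 251 and 465 at 120 days. The genotypes overlapped at both ages, whereas the NTg arrays at 120 days (at least 409.4 as deposited) all lay above those at 90 days (at most 408.3; log2 fold change 0.37, limma adjusted p = 0.431). On a second probe set all 6 arrays at 90 days (135 to 213) were below all 6 at 120 days (217 to 304), with log2 fold changes of 0.64 (limma adjusted p = 0.142) in NTg and 0.75 (adjusted p = 0.0682) in SOD1 G93A mice. SOD1 G93A replicate 3 at 120 days, the array with 31.8 for Eif2s3y, correlated least with its own group (mean r 0.835, and 0.880 to 0.952 for the other 120-day arrays). It read 46.1 on a probe set of the Y-linked gene Uty, where the other 120-day arrays read 1.1 to 5.3, but 0.8 on another. Another Xist probe set was at most 3.2 at 90 days. At 120 days that probe set read 87.2 to 244.8 in NTg and 247 to 397 in SOD1 G93A mice (log2 fold change 1.01, limma adjusted p = 0.0703).

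**Figure D1:**
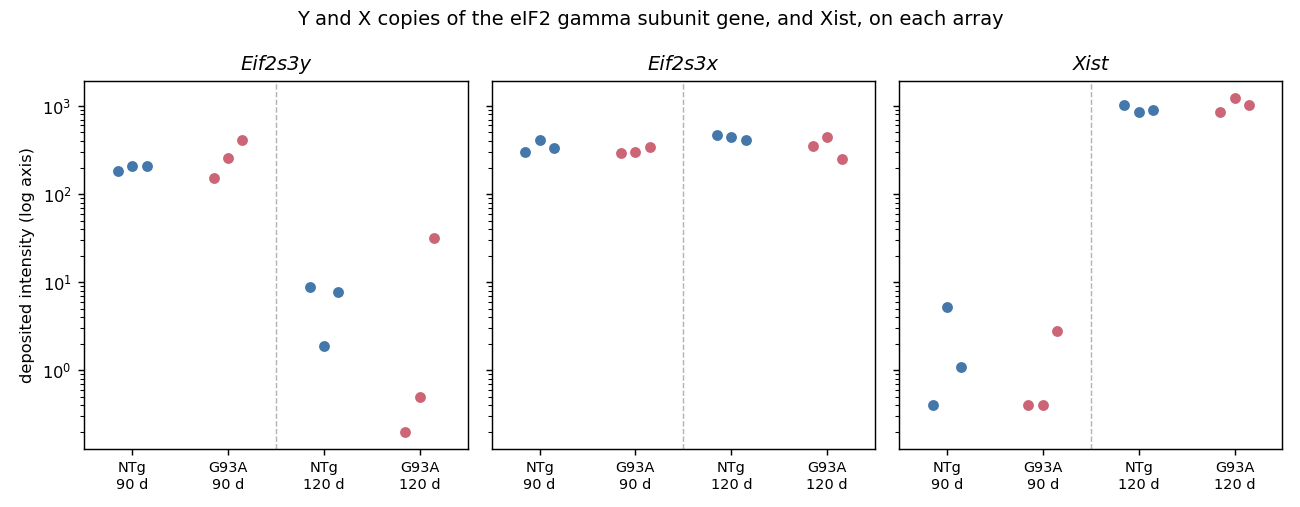
Deposited intensity on a log axis of Eif2s3y, Eif2s3x and Xist on each of the 12 arrays (points) in NTg (blue) and SOD1 G93A (red) mice at 90 and 120 days. Eif2s3y was at 152 to 411 at 90 days and at most 31.8 at 120 days, while Xist was at most 5.2 at 90 days and at least 846 at 120 days.

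At 120 days 8 of the 52 genes passed the test between SOD1 G93A and NTg mice. Eif4ebp1, Eef1a1, Eif4e2, Eif4a1, Eef1b2 and Eif3k were higher in SOD1 G93A mice, and Eif5a2 and Eif1ax lower. A call here is an adjusted p under 0.05 in limma, adjusted after Benjamini and Hochberg over all 26153 probe sets tested, and fold changes are on the scale of normalized log2(intensity + 7), which understates the change of dim genes. The 8 calls are 15.4% of the genes, where 7.42% of all probe sets tested and 8.52% of the brightest probe sets of all 12438 genes tested were called. By direction, 3.60% of all probe sets were called higher and 3.82% lower. An unadjusted p under 0.05 was found for 13 of the genes, and for 25.7% of all probe sets. The median log2 fold change of the 52 genes was 0.13, and that of all probe sets tested was -0.07. The count rested on single arrays, falling to 1 without NTg replicate 2 at 120 days, to 3 without NTg replicate 3 or without SOD1 G93A replicate 3, to 4 without NTg replicate 1 of that age, and to 5 without NTg replicate 1 at 90 days. Eif4ebp1 was the 1 gene called under all 24 alternatives tried.

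**Figure D2:**
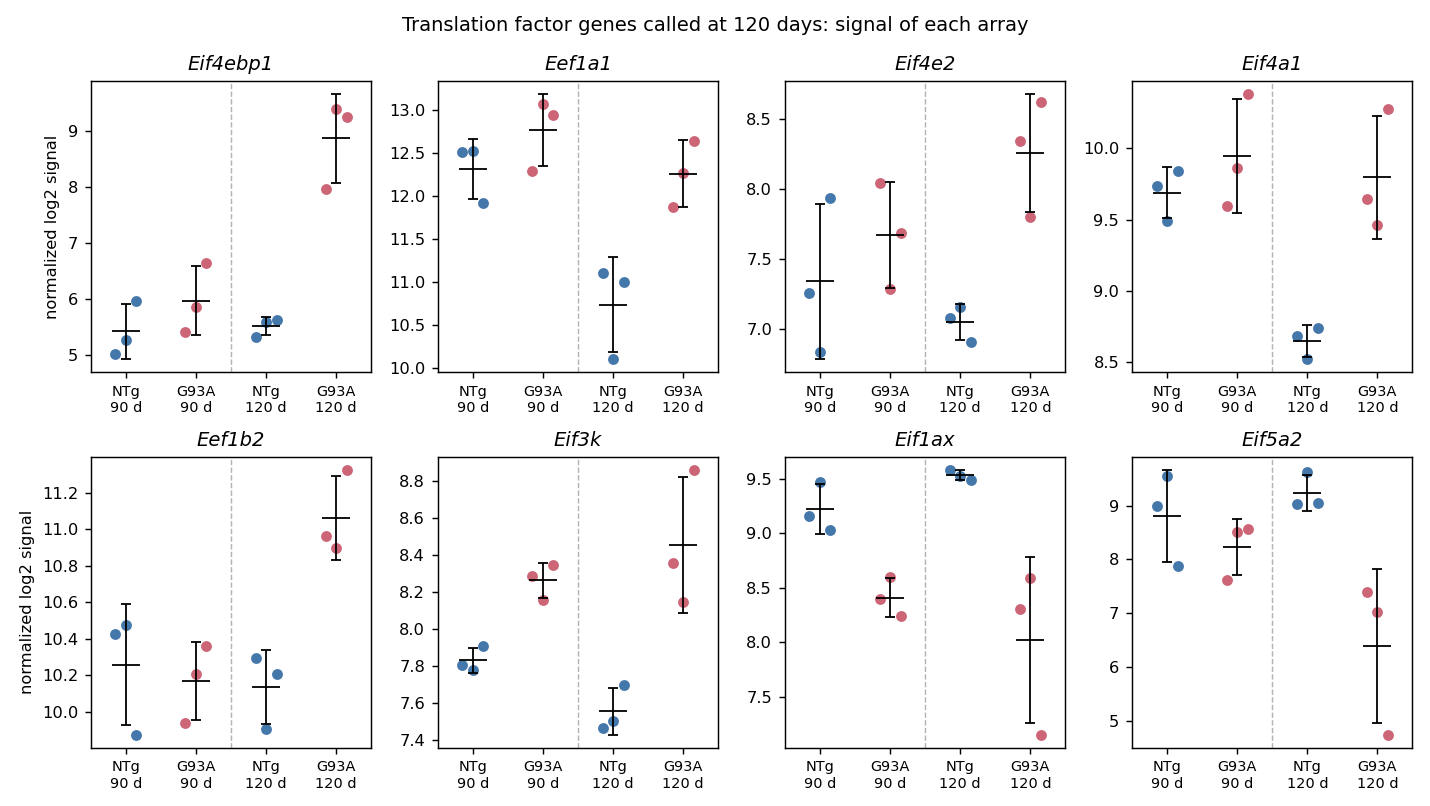
Normalized log2 signal of the 8 genes called at 120 days on each array (points) in NTg (blue) and SOD1 G93A (red) mice, with the mean (black dash) and SD (bars) of each group of 3, normalized within each age. At 120 days the groups of arrays did not overlap for any of the 8 genes, 6 of them higher and 2 lower in SOD1 G93A mice.

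The highest log2 fold change between the genotypes was that of Eif4ebp1, which encodes the inhibitor of cap-dependent initiation 4E-BP1. Its intensities at 120 days were 31.9, 30.3 and 38.2 in NTg mice and 242, 636 and 505 in SOD1 G93A mice. Every SOD1 G93A array was far above every NTg array. The log2 fold change was 3.35 (SE 0.41, limma adjusted p = 0.000555). At 90 days the NTg arrays read 24.8, 28.1 and 56.1 and the SOD1 G93A arrays 36.8, 53.6 and 94.3, so that the groups overlapped (log2 fold change 0.55, SE 0.41, adjusted p = 1.00). The probe set carries the suffix that marks probes able to match other transcripts. A second probe set of the gene rose by 2.60 (adjusted p = 0.00931), and the remaining one had a log2 fold change of 0.85 (SE 0.52, adjusted p = 0.322). The other binding proteins were not called, with log2 fold changes of 0.42 (SE 0.32) for Eif4ebp2, which encodes the paralog 4E-BP2, and 0.25 (SE 0.22) for Eif4enif1, which encodes the eIF4E transporter 4E-T. Eif4ebp3 shares its probe set with Ankhd1 and was left out by the rule.

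Among elongation factors, Eef1a1, which encodes the eEF1A form used by most cells, had intensities at 120 days of 2113, 1230.2 and 1949.8 in NTg mice and 4005, 4724 and 8169 in SOD1 G93A mice. The groups did not overlap, and SOD1 G93A replicate 3 stood highest. The log2 fold change was 1.52 (SE 0.34, limma adjusted p = 0.0192), and it was 1.26 (adjusted p = 0.0663) without that array and 1.23 (adjusted p = 0.0941) without NTg replicate 2. At 90 days the values were 5189.5, 5125 and 4612 in NTg mice and 5984, 7115 and 7266 in SOD1 G93A mice, which did not overlap as deposited but did after normalization (log2 fold change 0.45, adjusted p = 1.00, not called). Eef1a1 has many processed copies in mammalian genomes, and how far the probes of its only probe set here read them was not tested. Eef1a2, the form of neurons and muscle, had a log2 fold change of -0.03 (SE 0.28, adjusted p = 0.956) at 120 days.

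Eef1b2, which encodes the nucleotide exchange subunit of eEF1, had intensities at 120 days of 1252.5, 1073 and 1182 in NTg mice and 2209.5, 1862.5 and 2612 in SOD1 G93A mice. All 3 SOD1 G93A arrays were above the NTg arrays, with a log2 fold change of 0.93 (SE 0.26, limma adjusted p = 0.0443). The call was lost under 15 of the 24 alternatives, where the value was at least 0.52 and the adjusted p at most 0.217. Eef1d, another exchange subunit, was not called (log2 fold change 0.46, adjusted p = 0.317), and its groups overlapped as deposited. Eef2, which encodes the translocase, had 0.13 (SE 0.29, adjusted p = 0.820), and its kinase Eef2k -0.12 (SE 0.24). Of the 4 modifiers of elongation factors tested, none was called by limma, and none had an unadjusted p under 0.05.

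Within the cap complex, Eif4a1, which encodes the helicase eIF4A1, had intensities at 120 days of 416, 400.4 and 448 in NTg mice and 819.9, 665 and 1075 in SOD1 G93A mice. These groups lay clearly apart, with a log2 fold change of 1.15 (SE 0.28, limma adjusted p = 0.0281). A second probe set gave 1.54 (adjusted p = 0.0529). The call was lost without any 1 NTg array of that age or SOD1 G93A replicate 3 (value at least 0.59 and adjusted p at most 0.165 over the 24 alternatives). At 90 days its intensities of 838, 744 and 928 in NTg mice and 763, 880.4 and 1291 in SOD1 G93A mice overlapped. The paralog Eif4a2 had a log2 fold change of -0.69 (SE 0.33, adjusted p = 0.204), with all 3 SOD1 G93A arrays (454 to 563) below the NTg arrays (776 to 1092).

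Eif4e2 encodes 4EHP, a cap-binding protein that does not bind eIF4G and acts in repression. Its intensities at 120 days were 128, 132 and 112 in NTg mice and 317, 213 and 332 in SOD1 G93A mice, without overlap (log2 fold change 1.21, SE 0.32, limma adjusted p = 0.0395). The call was lost under 12 of the 24 alternatives, with a value of at least 0.75 and an adjusted p of at most 0.131. Of its 3 other tested probe sets, one was also called (1.10, adjusted p = 0.0212), and the others had log2 fold changes of 0.81 and 0.04. Eif4e, which encodes the main cap-binding protein, had a log2 fold change of -0.44 (SE 0.25, adjusted p = 0.285), with arrays of 179 to 210 (SOD1 G93A) below those of 232.5 to 345 (NTg). The eIF4G family genes Eif4g2 and Eif4g3 and the eIF4A cofactors Eif4b and Eif4h were not called, with log2 fold changes from -0.34 to 0.34. Eif4g1 had no probe set under the rule, so these values do not cover the whole eIF4G family.

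The lowest log2 fold change between the genotypes was that of Eif5a2, which encodes the second form of the hypusine-bearing factor eIF5A. Its intensities at 120 days were 529.9, 885 and 560.3 in NTg mice and 157, 125 and 31.3 in SOD1 G93A mice. No SOD1 G93A array reached the lowest NTg array, and replicate 3 was the lowest of all. The log2 fold change was -2.85 (SE 0.60, limma adjusted p = 0.0140), and it was -2.09 (adjusted p = 0.0213) without that array and -2.59 (adjusted p = 0.0761) without NTg replicate 2. At 90 days both genotypes spread widely, with 507, 774 and 217 in NTg mice and 187, 361 and 378 in SOD1 G93A mice (log2 fold change -0.58, SE 0.60, adjusted p = 1.00). A second probe set of the gene had a log2 fold change of 0.10 (SE 0.24) at 120 days. Eif5a, the ubiquitous paralog, had -0.02 (SE 0.29, adjusted p = 0.979), Eif5b, which joins the ribosomal subunits, -0.08, and Eif6, which keeps them apart, 0.37 (adjusted p = 0.322).

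Eif1ax, the X-linked gene of the scanning factor eIF1A, had intensities at 120 days of 784, 825 and 741 in NTg mice and 307.5, 367 and 139.5 in SOD1 G93A mice. The SOD1 G93A arrays were all below the NTg arrays (log2 fold change -1.51, SE 0.33, limma adjusted p = 0.0163). Without NTg replicate 2 the adjusted p was 0.0675, and the call was also lost without NTg replicate 3. The groups did not overlap at 90 days either, with 567, 734.5 and 504 in NTg mice and 323, 383 and 302 in SOD1 G93A mice. The log2 fold change there was -0.81 (SE 0.33), the 1 value of the 52 genes with an unadjusted p under 0.05 at that age, but its adjusted p was 0.796. Its other probe sets disagreed at 120 days, one being called lower (-1.47, adjusted p = 0.0357) and one having a log2 fold change of 0.79 (SE 0.30, adjusted p = 0.120). The start-site factors Eif1a, Eif1b and Eif5 were not called, with log2 fold changes of -0.61, -0.44 and -0.13, nor was Eif1ad, with 0.94 (adjusted p = 0.0629).

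**Figure D3:**
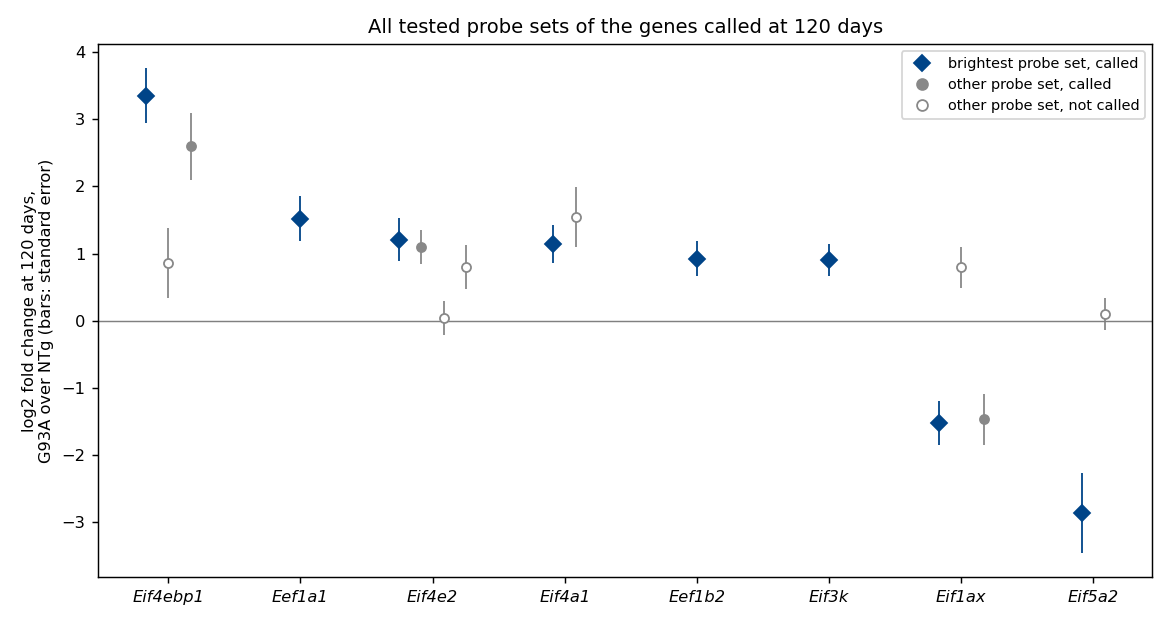
Log2 fold change at 120 days, SOD1 G93A over NTg, with its standard error (bars) for the 17 tested probe sets of the 8 called genes, the brightest as blue diamonds and the others as grey circles (filled where called). The probe sets of Eif5a2 (-2.85 and 0.10) and of Eif1ax (-1.51, -1.47 and 0.79) lie apart.

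eIF3 was the largest group, with 11 of its genes tested and Eif3k called. Eif3k, a small peripheral subunit of the complex, had intensities at 120 days of 171, 176 and 206 in NTg mice and 319, 271 and 386 in SOD1 G93A mice, and at 90 days of 219, 214 and 222 in NTg mice and 300, 283.5 and 324 in SOD1 G93A mice. The SOD1 G93A arrays lay above the NTg arrays at both ages, with log2 fold changes of 0.43 (SE 0.24, limma adjusted p = 0.981) at 90 days and 0.90 (SE 0.24, adjusted p = 0.0384) at 120 days. The call was lost under 10 of the 24 alternatives, with a value of at least 0.39 and an adjusted p of at most 0.304. The other 10 genes did not pass the test. At 120 days 10 of the 11 log2 fold changes were above 0 and their median was 0.31, with values of 0.62 for the core scaffold Eif3a (adjusted p = 0.140), 0.66 for Eif3d, 0.54 for Eif3h and -0.59 for Eif3m. With each array centred on its median, which moved the median of all probe sets tested from -0.07 to -0.33, 4 of the 11 were above 0 and their median was -0.09.

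None of the 3 tested eIF2 subunit genes, of the genes of the separate factors eIF2A and eIF2D, or of the 5 eIF2B genes was called by limma at 120 days, and 2 of these 10 genes had an unadjusted p under 0.05. These were Eif2s2, the beta subunit of eIF2, with intensities of 636, 406 and 440.2 in NTg mice and 877, 693 and 998 in SOD1 G93A mice (log2 fold change 0.97, SE 0.36, adjusted p = 0.117), and Eif2b1, the alpha subunit of eIF2B, with a log2 fold change of -1.07 (SE 0.47, adjusted p = 0.177). The SOD1 G93A arrays of Eif2s2 were all above its NTg arrays, while those of Eif2b1 overlapped. Eif2s3y passed the filter only through its arrays at 90 days and read 0.2 to 31.8 at 120 days. Its missing call at 120 days is therefore no result about that gene. The gene of the eIF2 alpha subunit, Eif2s1, had no probe set under the rule. The median log2 fold change of the eIF2B genes was -0.12. The 9 tested members of a list of genes with known 5'TOP mRNAs, in which Eef1a1 and Eef1b2 were called, had 8 log2 fold changes above 0 and a median of 0.46, beside -0.06 for the 43 members outside it, and with median centring 4 of 9 were above 0 with a median of -0.05, where the median of all probe sets tested was -0.33.

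**Figure D4:**
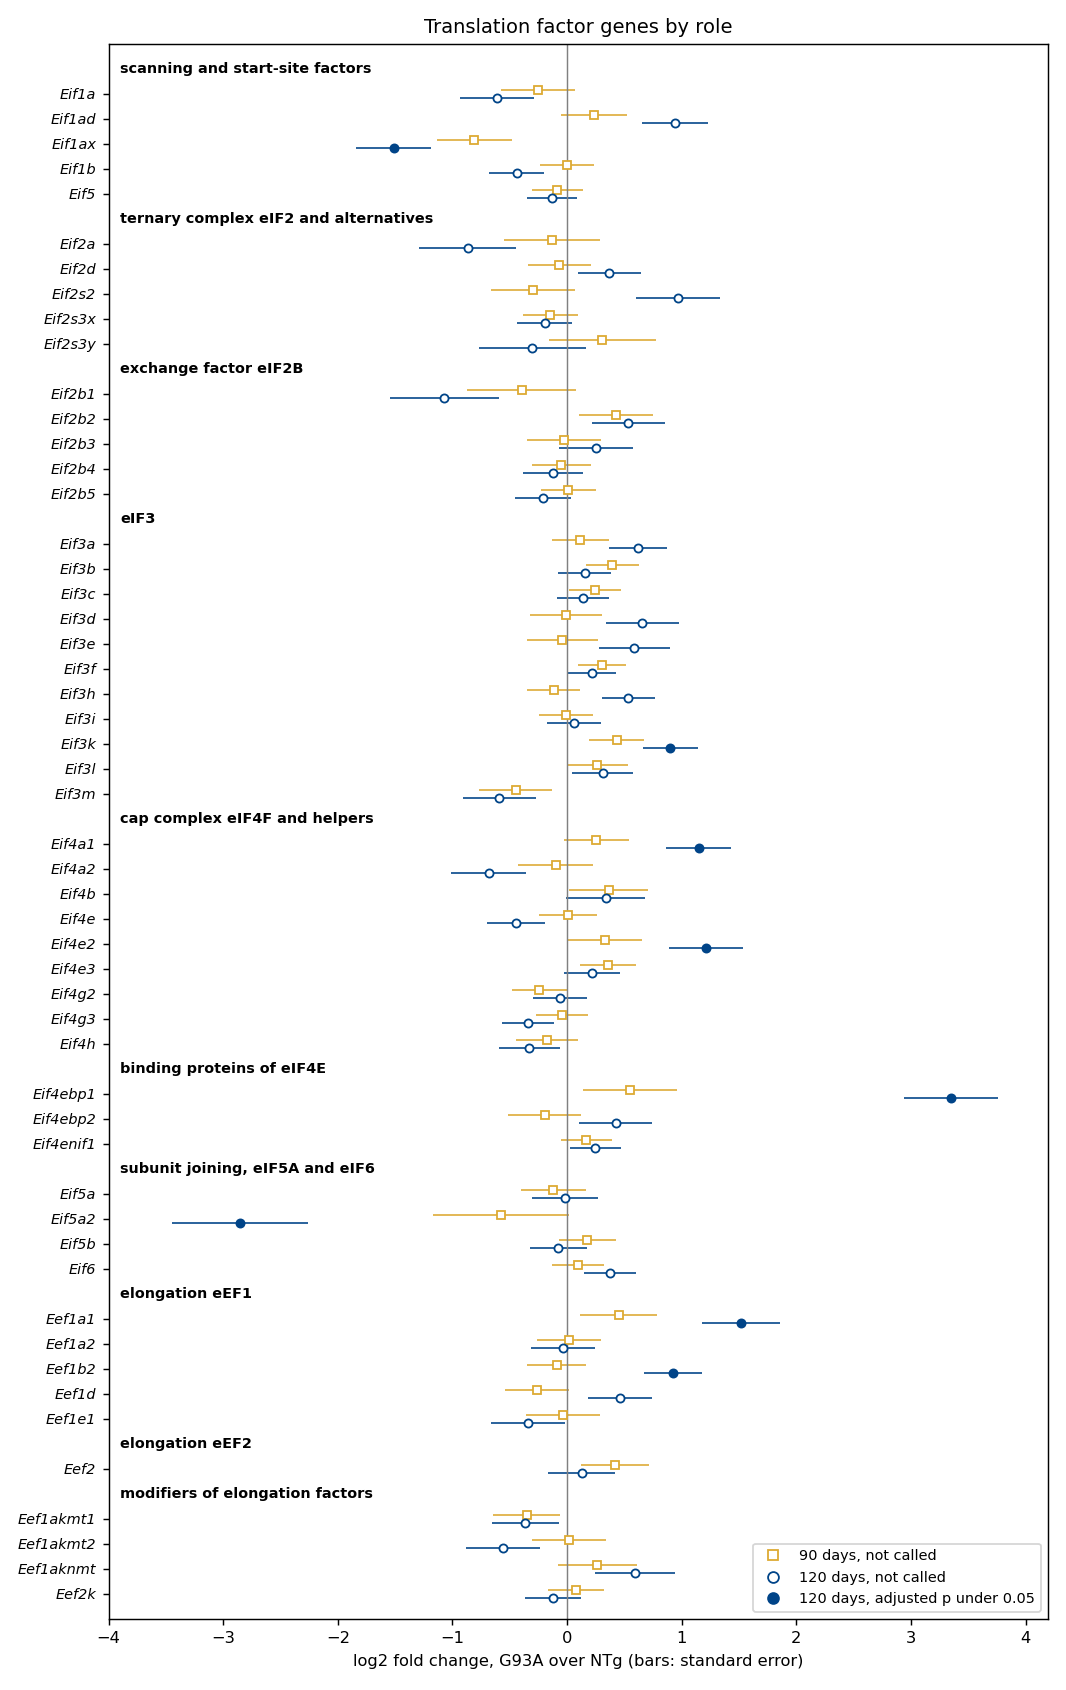
Log2 fold change, SOD1 G93A over NTg, with its standard error (bars) for the 52 genes tested, grouped by role, at 90 days (yellow squares) and 120 days (blue circles, filled where the adjusted p was under 0.05). No gene was called at 90 days, and at 120 days values ran from -2.85 for Eif5a2 to 3.35 for Eif4ebp1.

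At 90 days none of the 52 genes was called by limma (0.138% of all probe sets tested were), and 1 had an unadjusted p under 0.05 (5.60% of all). Log2 fold changes ran from -0.81 for Eif1ax to 0.55 for Eif4ebp1, with a median of -0.00 for the 52 genes and for all probe sets tested. The deposited intensities of the genotypes did not overlap for 4 genes higher in SOD1 G93A mice (Eef1a1, Eif3b, Eif3k and Eif4e3, 7.69%) and 2 lower (Eif1ax and Eif4g2, 3.85%), where 6.45% and 4.85% of all probe sets tested did not. At 120 days these were 13 genes higher (25%) and 6 lower (11.5%), beside 17.5% and 15.8% of all probe sets. After normalization 4 were higher and 1 lower at 90 days (beside 5.74% and 5.55% of all probe sets), and 14 higher and 10 lower at 120 days (beside 14.0% and 18.4%). At a 2-fold change with an unadjusted p under 0.05, 4 genes were higher and 3 lower at 120 days and none at 90 days, where 12.7% and 1.77% of all probe sets tested passed in either direction.

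The difference between the 120-day and the 90-day contrast was tested directly. No gene passed in limma (0% of all probe sets tested were called), and 6 had an unadjusted p under 0.05, where 9.23% of all probe sets did. The smallest adjusted p was 0.210, for Eif4ebp1, whose contrasts differed by 2.80 (SE 0.58). That of Eif5a2 differed by -2.28 (SE 0.84, adjusted p = 0.479) and those of Eif2s2, Eef1a1, Eef1b2 and Eif4a1 by 0.89 to 1.26. A call at 120 days and none at 90 days is thus not shown to be a difference between the ages.

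Between the ages, with all 12 arrays normalized together, 2 genes were called in NTg mice (3.58% of all probe sets tested) and 4 in SOD1 G93A mice (6.91%). These comparisons use the same arrays as those of genotype. Eif2s3y was lower at 120 days in both genotypes, with log2 fold changes of -4.07 (SE 0.43, limma adjusted p = 0.000826) in NTg and -4.58 (adjusted p = 0.000321) in SOD1 G93A mice beside the Xist pattern described above. Since Eif2s3y passed the filter only through its arrays at 90 days, these values are a description. Eef1a1 was lower at 120 than at 90 days in NTg mice (-1.42, SE 0.34, adjusted p = 0.0397), a call lost when any 1 NTg array or SOD1 G93A replicate 3 at 90 days was left out (values from -1.11 to -1.74 over the alternatives), and had -0.43 (adjusted p = 0.451) in SOD1 G93A mice. In SOD1 G93A mice Eif4ebp1 was higher at 120 days (2.86, SE 0.40, adjusted p = 0.00306), while it had -0.25 (adjusted p = 0.785) in NTg mice. Also higher in SOD1 G93A mice were Eef1b2 (1.11, adjusted p = 0.0247) and Eif4ebp2 (1.26, adjusted p = 0.0300), both calls being lost without SOD1 G93A replicate 2 at 90 days or replicate 3 at 120 days. That of Eef1b2 was also lost without SOD1 G93A replicate 1 at 90 days, and that of Eif4ebp2 without SOD1 G93A replicate 3 at 90 days or replicate 2 at 120 days (values over the alternatives from 0.45 to 1.20 and from 0.90 to 1.48). In NTg mice Eef1b2 had 0.09 (limma adjusted p = 0.882) and Eif4ebp2 0.63 (adjusted p = 0.282).

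Among 71 other genes of translation, 67 were tested. At 90 days none was called by limma (0.138% of all probe sets tested were), and none had an unadjusted p under 0.05 (5.60% of all). At 120 days 2 were called (2.99%), a smaller share than the 7.42% of all probe sets tested. An unadjusted p under 0.05 was found for 13 at that age, and for 25.7% of all probe sets. Pabpc1, which encodes the poly(A)-binding protein that contacts eIF4G and is itself a 5'TOP gene, had intensities at 120 days of 814.5, 1056 and 868 in NTg mice and 1756.5, 1813 and 3333 in SOD1 G93A mice. Its log2 fold change was 1.29 (SE 0.35, limma adjusted p = 0.0399), and Paip1, which encodes a partner of that protein, had -0.76 (adjusted p = 0.0473). These 2 calls were not put through the alternatives, and the other probe sets of Pabpc1 and Paip1 were not read. None of the 12 mTORC1 and MNK signalling genes was called (none had an unadjusted p under 0.05), and their median log2 fold change was 0.01. Nor was any of the 6 eIF2 kinase and phosphatase genes called by limma (2 had an unadjusted p under 0.05), among them Eif2ak2, which encodes the kinase PKR, with 1.21 (SE 0.40, adjusted p = 0.0837), and Ppp1r15a, which encodes GADD34, with 0.85 (adjusted p = 0.104). None of the 7 enzymes of hypusine and diphthamide, 8 termination and recycling factors, 7 mitochondrial factors and 21 tRNA synthetase genes and cofactors passed either, with medians of -0.12, -0.28, -0.49 and -0.15, and 2, 1, 3 and 2 of them had an unadjusted p under 0.05.

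The promoters of 4 called genes are given to set their sequence beside the values above. At 120 days Eif5a2 and Eif1ax were lower, and Eef1a1 and Eif4a1 higher, in SOD1 G93A than in NTg mice. RefSeq sequences of GRCm38.p6 matched 43 of the 54 genes and 7 of the 8 called genes, all but Eif4ebp1. Each is the 250 bases before the annotated start, the most upstream one where several are listed, read 5' to 3' on the gene's strand, at chr3:28781027-28781276 (plus strand), chrX:159371928-159372177 (plus), chr9:78481725-78481974 (minus) and chr11:69672424-69672673 (minus). Capitals mark matches on either strand to any of 4 motifs, and runs of capitals can hold overlapping matches. The E-box was searched as CACGTG. The box known by its core letters was searched as CCAAT. The ETS-type motif was searched as CCGGAAG. The GC box was searched as GGGCGG.
Eif5a2: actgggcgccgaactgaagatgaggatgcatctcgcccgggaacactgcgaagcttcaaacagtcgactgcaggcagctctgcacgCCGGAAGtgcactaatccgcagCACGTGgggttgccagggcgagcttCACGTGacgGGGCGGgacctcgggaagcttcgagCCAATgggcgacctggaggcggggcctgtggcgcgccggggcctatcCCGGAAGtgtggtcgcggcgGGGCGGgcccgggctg
Eif1ax: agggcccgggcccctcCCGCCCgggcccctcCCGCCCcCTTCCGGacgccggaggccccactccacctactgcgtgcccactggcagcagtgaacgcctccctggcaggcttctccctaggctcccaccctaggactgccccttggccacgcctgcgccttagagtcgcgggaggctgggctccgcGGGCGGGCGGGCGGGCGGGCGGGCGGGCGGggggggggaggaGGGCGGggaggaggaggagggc
Eef1a1: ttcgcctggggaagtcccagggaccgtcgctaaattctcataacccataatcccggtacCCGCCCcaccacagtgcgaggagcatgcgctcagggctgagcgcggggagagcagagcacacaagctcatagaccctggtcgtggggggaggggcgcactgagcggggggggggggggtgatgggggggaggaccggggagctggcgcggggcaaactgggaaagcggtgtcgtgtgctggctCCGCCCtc
Eif4a1: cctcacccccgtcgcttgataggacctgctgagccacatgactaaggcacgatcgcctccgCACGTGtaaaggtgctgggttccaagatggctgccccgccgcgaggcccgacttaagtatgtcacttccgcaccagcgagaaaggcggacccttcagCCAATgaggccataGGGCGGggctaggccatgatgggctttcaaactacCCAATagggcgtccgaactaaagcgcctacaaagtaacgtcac
The Eif5a2 promoter held 2 E-boxes, 2 ETS-type motifs, 1 CCAAT box and 2 GC boxes, and that of Eif1ax 1 ETS-type motif and 10 GC boxes. The E-box was in 9 of the 43 promoters (20.9%), those of the called genes Eif3k, Eif4a1 and Eif5a2 included, where 6.65% of the promoters of 17492 protein-coding genes and 6.04% of all 27025 held it. The ETS-type motif was also in 9 (20.9%, beside 9.15% and 7.07%), the GC box in 31 (72.1%, beside 42.7% and 33.0%) and the CCAAT box in 11 (25.6%, beside 36.5% and 34.5%). Genes lower and genes higher in SOD1 G93A mice held motifs in common, since both Eif5a2 and Eif4a1 had the E-box, the CCAAT box and the GC box. A match is a description of the letters and not a measured binding site.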

How the data were processed

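The authors deposited linear intensities of Affymetrix mouse arrays, made by MAS5 (version not given in the sources used here) from RNA amplified over 2 rounds, with the trimmed mean of every array set to 100. The labels describe toluidine blue staining and the paper ALDH1L1 staining. The paper tested PLIER values in GeneSpring, which these are not. Array medians at 90 days were 24.9 to 30.4 in NTg and 27.8 to 29.8 in SOD1 G93A mice. At 120 days they were 27.9 to 37.1 in NTg and 38.8 to 55.2 in SOD1 G93A mice, without overlap. Precision is limited by the number of arrays. Detection calls were not analysed here.

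Of 45101 probe sets, 64 controls were left out, 34945 had 1 symbol, 932 several and 9160 none. Values were taken as log2(intensity + 7), with 7 the 20th percentile of all values, and quantile-normalized within each age, or over all 12 arrays between ages. A linear model of 4 group means (8 residual degrees of freedom) was fitted to 26153 probe sets with limma 3.58.1 under R 4.3.3, using empirical Bayes moderation. Steps were tested on simulated data. Replicate numbers were not treated as pairs of mice in the main model. Correlations of deviations from group means were -0.28 to 0.28 for the same number and -0.36 to 0.46 for different numbers. With 3 arrays per group these deviations constrain each other, so the correlations cannot decide whether mice were paired. The value of 0.46 was between SOD1 G93A replicate 1 and NTg replicate 3 at 90 days. These had the highest log2 ratios of 3' to 5' signal of the Gapdh controls at that age (4.47 and 4.60). The other 90-day arrays had 3.49 to 4.29. At 120 days the ratios were 4.52 to 5.01 in NTg and 4.39 to 5.08 in SOD1 G93A mice. A part of RNA quality or preparation in that correlation, or in the comparisons between ages, was not tested. Levels were not compared between probe sets. Alternatives were other normalizations, offsets, filters, weights and variance priors, each age or genotype alone, a replicate block, the mean of all probe sets of a gene and leaving out each array. Named genes were the called ones, up to 30 members by smallest p at 120 days, the 5 with the smallest p at 90 days, paralogs of called genes, and up to 4 genes of each other list. Other names were chosen after their values were seen. Members and lists were chosen with earlier results of these data known. Per the labels each array is of a separate mouse. Figures used matplotlib 3.10.9 in python 3.11.15.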

Additional observations from a re-analysis of the deposited data

How the results depend on the processing

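At 90 days and for the difference of the contrasts, no gene was called in limma under any alternative run. At 120 days the count of 8 became 1 with each age fitted alone, 5 (2 higher, 3 lower) with median centring and 4 without a filter, and 1 to 8 leaving out 1 array. With a replicate block it became 4 (Eif4ebp1, Eef1a1, Eif5a2 and Eif1ax). The median of 0.13 became -0.26 with median centring, 0.11 with array weights and 0.0776 with the mean of all probe sets (0.0622 to 0.16 leaving out 1 array). At 90 days the median of -0.00 became -0.0301 as deposited, -0.0914 with median centring, 0.0046 without a filter, 0.0157 with array weights and 0.0113 with the mean of probe sets (-0.0068 to 0.0800 leaving out 1 array). Between ages in NTg mice the count of 2 became 5 with median centring, 1 with an offset of 1, 1 without a filter, 4 with each genotype alone, 12 with array weights and 4 with the mean of probe sets (1 to 4 leaving out 1 array). In SOD1 G93A mice the count of 4 became 17 (2 higher, 15 lower) with median centring and 2 with each genotype alone (2 to 6 leaving out 1 array). Over all probe sets tested at 120 days, 48.5% of calls were higher, against 19.1% with median centring. Between ages, median centring called 564 of all probe sets tested higher and 4493 lower in SOD1 G93A mice, with a median log2 fold change of -0.45. In NTg mice it called 197 higher and 1145 lower. The member counts with median centring thus lie beside a shift of all probe sets. Such counts over all probe sets were made only for the normalizations, not for the other alternatives. No called value changed sign. Without SOD1 G93A replicate 3 at 120 days the count between ages was 4 in NTg and 2 in SOD1 G93A mice. Of the calls at 120 days, Eif5a2 was lost under 2, Eif1ax and Eef1a1 under 3, Eif4a1 under 8, Eif3k under 10, Eif4e2 under 12 and Eef1b2 under 15 of 24 alternatives. The causes were not tested. Values near the offset carry little precision.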
